A study of Mus musculus with 18 samples.

Results

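Reprogramming from day 0 to day 12 was compared between cells carrying either of 2 negative controls, a scrambled shRNA (shSCR) and an empty expression vector (Empty). Each control is the reference that the other day 12 cells of its dataset were set against. The comparison took in 8 of the 18 libraries of the series. It covered the 9041 genes listed in both deposited expression tables, of 9866 listed in either, and the 375849 alternative splicing events covered in all 8 libraries, of 661941 in the splicing table. A change is day 12 minus day 0 within a dataset, and a difference is the change in shSCR cells minus the change in Empty cells.

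All cells were primary reprogrammable mouse embryonic fibroblasts (MEFs) with the genotype Collagen-OKSM, M2rtta+, in which doxycycline induces OCT4, KLF4, SOX2, and MYC. The knockdown dataset set non-infected cells at day 0 (KD_NI, 2 libraries) against cells carrying lentiviral shSCR at day 12 (2 libraries). The overexpression dataset set non-infected cells at day 0 (OE_NI, 2 libraries) against cells carrying the retroviral empty vector at day 12 (2 libraries). Infected cells received doxycycline and LIF from the time of infection, were sorted for GFP on day 2, and were grown on irradiated feeder cells. The NI cells went through none of these steps, so that infection, sorting, feeders, and 12 days of OSKM cannot be told apart within either control. The virus, the shRNA, and the dataset differ together between the controls and cannot be told apart either. A time entry in the labels gives day 12 for the OE_NI libraries, but their titles and the paper give day 0, which was used. Nothing in the sources says that the 2 libraries of a group came from separate cultures, so p-values measure only the spread between these samples.

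The depth was even, at 99125788 to 109047542 reads on the listed genes per library, and 2 libraries stood apart from their partners. Across the 9041 genes, the log2 values of shSCR replicate 1 correlated with those of shSCR replicate 2 at r = 0.933, whereas shSCR replicate 2 correlated with the Empty libraries at 0.971 and 0.981. The OE_NI replicate 2 library correlated with the other day 0 libraries at 0.930 to 0.949, and those among themselves at 0.986 to 0.991. The SD across genes of the difference between partners was 0.511 for shSCR and 0.518 for OE_NI, against 0.207 for KD_NI and 0.190 for Empty. All 6 fibroblast markers examined were measured at day 0 in both datasets, but not all fell. *Col1a2*, *Thy1*, and *Pdgfrb* fell in Empty cells (−1.76, −0.92, and −1.74 on the log2 scale), with changes of −1.09, −0.02, and −0.74 in shSCR cells that did not pass the threshold (adjusted p = 0.0953, 0.953, and 0.182 by *limma*). *Col3a1* and *Pdgfra* passed it in neither control, with changes of 0.18 and 1.30 in shSCR cells and −0.63 and −0.66 in Empty cells. *Col1a1*, the main fibrillar collagen of fibroblasts, was at 5158 and 6395 scaled CPM in KD_NI and at 5340 and 15607 in OE_NI, and it fell in both controls, to 1099 and 1228 in shSCR cells and 955 and 1064 in Empty cells (adjusted p = 0.0078 and 0.0034). Scaled CPM are read counts relative to a library size that the authors scaled for each library, and the expression tables of the datasets were scaled separately, so levels are compared only within a dataset.

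When fibroblasts reprogram, they give up their mesenchymal and contractile program early, take on epithelial features and a more glycolytic metabolism, and only then activate the endogenous pluripotency network. Splicing changes during reprogramming as well, and SR proteins, hnRNPs, and other RNA-binding proteins select which exons are joined. Many genes of splicing regulators carry introns or exons whose inclusion makes a transcript that stays in the nucleus or is degraded, and the CLK kinases control SR proteins by phosphorylation. A scrambled shRNA or an empty vector is meant to leave these processes as they are.

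Nearly all genes that changed in both controls did so in the same direction, and no gene's change differed between them past the threshold. In shSCR cells 1916 genes rose and 2038 fell (43.7% of the 9041 genes), and in Empty cells 1570 rose and 1777 fell (37.0%), by *limma* on log2(scaled CPM + 1) at an adjusted p under 0.05. Of these, 2555 genes changed in the same direction in both controls, 1205 of them upward and 1350 downward. A further 1393 genes passed the threshold only in shSCR cells and 786 only in Empty cells, which does not show that they differ, and 1291 and 735 of them had a change of the same sign in the other control. The difference was called for 0 genes, with a lowest adjusted p of 0.517, and 736 genes had an unadjusted p under 0.05 (8.14%). Leaving out both libraries that stood apart gave 5875 and 5408 changed genes and again 0 differences, with 1164 at an unadjusted p under 0.05. Leaving out single libraries moved the number of changed genes to between 1755 (without KD_NI replicate 1) and 4557 in shSCR cells, and to between 941 (without Empty replicate 1) and 4088 in Empty cells. It also moved the differences called, to 26 without shSCR replicate 2 and 42 without OE_NI replicate 1, with 0 genes in common, and in each case the library that stood apart was then the only one of its group.

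The interval of the difference, taken gene by gene and not adjusted over genes, describes how precisely these libraries placed the difference. For 5257 genes (58.1%) the 95% interval of the difference lay within 1 log2 unit of 0 on either side, and its median width to each side was 0.607. The point estimate of the difference was larger than 1 in size for 402 genes. In 2599 genes (28.7%) every library's change in one control lay above every library's change in the other, 1203 with the higher change in shSCR cells and 1396 with the higher change in Empty cells. Across the genes, the changes of the controls correlated at r = 0.846 (Spearman's rho 0.805), a description over genes that share libraries and are not independent. Among the 2555 genes that changed in the same direction, the change was larger in shSCR cells for 1475 and in Empty cells for 1080, although none of these differences was called.

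**Figure D1:**
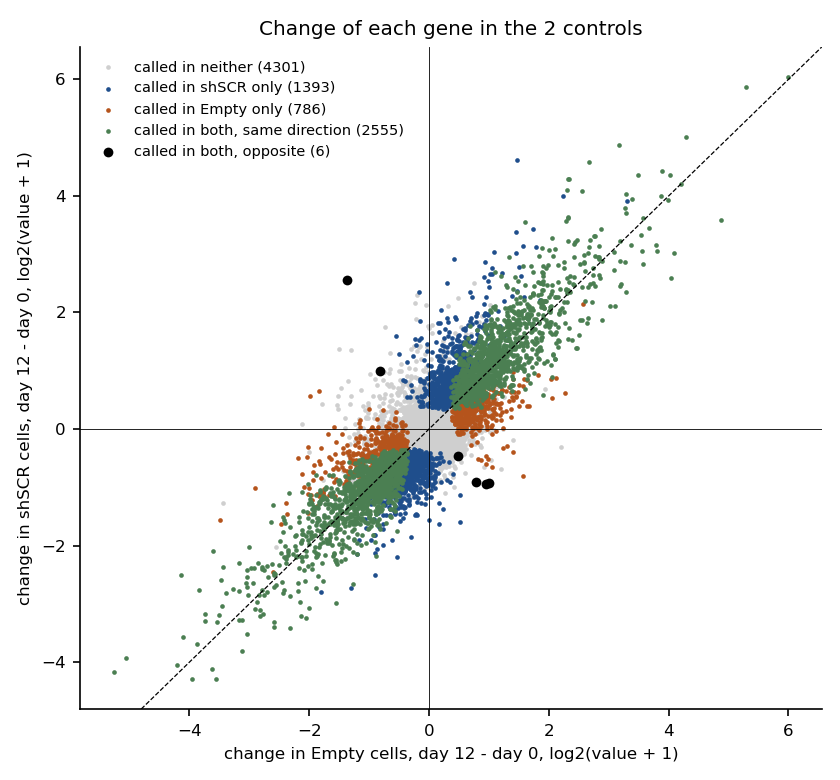
Change from day 0 to day 12 in Empty cells (x axis) against the change in shSCR cells (y axis), both in log2(scaled CPM + 1), with one point for each of the 9041 genes, colored by the control in which the change was called, and a dashed line of equal change. The cloud follows that line (r = 0.846), with 2555 genes called in the same direction in both controls and 6, drawn larger in black, in opposite directions.

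The 6 largest shared rises were in genes of various roles. *Slc2a3*, a glucose transporter (chr6:122727809-122801640, mm10), was at 16.1 and 11.7 in KD_NI, 761 and 1228 in shSCR, 8.49 and 11.3 in OE_NI and 819 and 580 in Empty (scaled CPM). Its day 12 libraries did not overlap with day 0 in either control, and it rose by 6.04 log2 units in shSCR cells and by nearly as much in Empty cells (adjusted p = 0.000531 and 0.000545), with a difference of 0.04 and a 95% interval from −0.95 to 1.03. *Apoe*, an apolipoprotein, was at 10.3 and 7.69 in KD_NI, 509 and 652 in shSCR, 5.65 and 16.7 in OE_NI and 433 and 412 in Empty, and rose by 5.86 and 5.28. *Epas1*, which encodes the hypoxia-inducible factor HIF-2α, was at 10.2 and 12.7 in KD_NI, 416 and 125 in shSCR, 8.89 and 11 in OE_NI and 199 and 199 in Empty, and its rise was 4.21 with shSCR and 4.20 with Empty. The shSCR libraries of *Epas1* changed by 5.07 and 3.34, and without the libraries that stood apart its difference was −0.99 (unadjusted p by *limma* = 0.00266). The remaining 3 of the largest shared rises were in *C1ra*, a complement protease (5.01 and 4.29), *Selenop*, a selenium carrier (4.36 and 4.03), and *Mgp*, an inhibitor of calcification (3.93 and 4.00). In OE_NI replicate 2, *C1ra*, *Selenop*, and *Mgp* stood at 19.7, 35.4, and 254 scaled CPM, against 5.64, 7.12, and 56.0 in OE_NI replicate 1.

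Among the largest shared falls were secreted and matrix genes of mesenchymal cells. *Adam12*, a metalloprotease of the cell surface, was at 217 and 185 in KD_NI, 7.08 and 12.1 in shSCR, 239 and 251 in OE_NI and 12 and 18.5 in Empty. It decreased by 4.29 in shSCR cells and by 3.95 in Empty cells. *Has2*, a hyaluronan synthase, was at 97.8 and 108 in KD_NI, 6.71 and 7.43 in shSCR, 147 and 110 in OE_NI and 5.54 and 10.7 in Empty, and it decreased by 3.69 and 3.87. *Tll1*, a protease that processes procollagen, was at 290 and 170 in KD_NI, 15.1 and 9.17 in shSCR, 216 and 74.4 in OE_NI and 7.17 and 12.1 in Empty, and its changes were −4.12 and −3.63. In each of these 3 genes both day 12 libraries lay below both day 0 libraries in either control.

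Since no difference was called, the differences described next are the 8 of each sign with the smallest unadjusted p among genes whose library changes did not overlap between the controls, and all 16 had adjusted p from 0.517 to 0.546. Toward shSCR, the lowest p belonged to *Kcnj15*, an inwardly rectifying potassium channel, at 6.54 and 3.39 in KD_NI, 45 and 23.9 in shSCR, 20.2 and 36.5 in OE_NI and 8.33 and 11.7 in Empty scaled CPM. Its level was higher at day 12 than at day 0 in both shSCR libraries and lower in both Empty libraries, with changes of 2.56 in shSCR cells (adjusted p = 0.00404) and −1.37 in Empty cells (adjusted p = 0.041) and a difference of 3.93 ± 0.60 (SE, unadjusted p = 0.000312). *Rsrp1*, which encodes an arginine- and serine-rich protein, was at 104 and 105 in KD_NI, 409 and 375 in shSCR, 211 and 298 in OE_NI and 315 and 306 in Empty. The difference was 1.59 ± 0.25 (SE, unadjusted p = 0.000389). *Pdk4*, a kinase that inhibits pyruvate dehydrogenase, was at 17.4 and 15.3 in KD_NI, 53.8 and 48.5 in shSCR, 45 and 26.4 in OE_NI and 22.8 and 23.5 in Empty, with changes of 1.59 and −0.55.

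*Clk1*, a kinase that phosphorylates SR proteins (chr1:58410189-58424066), was at 58.2 and 57.2 in KD_NI, 166 and 147 in shSCR, 84.8 and 95.1 in OE_NI and 102 and 112 in Empty scaled CPM. It rose by 1.42 in shSCR cells (adjusted p = 0.000922), the change in Empty cells was 0.25 (adjusted p = 0.176), and the difference was 1.17 ± 0.19 (SE, unadjusted p = 0.000404), with a 95% interval from 0.73 to 1.61. *Swt1*, an RNA endonuclease, and *Gm16185*, an antisense transcript whose reads can be split from its partner's only by strand, rose in both controls, with differences of 0.90 and 1.59. The zinc finger gene *Zfp329* and the Kelch-like gene *Klhl28* complete the 8, with changes of 0.76 and 0.86 in shSCR cells and −0.31 and −0.15 in Empty cells. Without OE_NI replicate 1, the differences of *Rsrp1* and *Pdk4* were called (1.84 and 1.77, adjusted p = 0.0360 and 0.0433).

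Toward Empty, *Hoxd13*, a homeobox gene of the distal limb (chr2:74668310-74671599), had the smallest p of all genes. It was at 39.6 and 46.3 in KD_NI, 12 and 15.1 in shSCR, 25.9 and 29.1 in OE_NI and 33.8 and 47.1 in Empty, so that both shSCR libraries lay under their day 0 libraries and both Empty libraries lay over theirs. The changes were −1.60 in shSCR cells (adjusted p = 0.00181) and 0.52 in Empty cells (adjusted p = 0.0827), and the difference was −2.13 ± 0.29 (SE, unadjusted p = 0.000153), with a 95% interval from −2.81 to −1.45. *Itga3*, an integrin that binds laminin, was at 84.7 and 78.9 in KD_NI, 63 and 55.6 in shSCR, 50.4 and 39.8 in OE_NI and 93.5 and 81.5 in Empty, with changes of −0.46 and 0.95. *Spry4* and *Dusp14*, which both restrain receptor tyrosine kinase and MAPK signaling, had differences of −1.65 and −1.91. *Spry4* was at 42.6 and 33.2 in KD_NI, 52.6 and 65.3 in shSCR, 27 and 18.3 in OE_NI and 107 and 116 in Empty, above day 0 in all 4 day 12 libraries, and *Dusp14* was at 30.8 and 25.1 in KD_NI, 13.1 and 14.8 in shSCR, 22.7 and 13.4 in OE_NI and 35.6 and 34.3 in Empty. *Hunk*, a kinase, rose in both controls, by 0.59 and 1.90, *Insyn1*, which encodes a protein of inhibitory synapses, had changes of −1.47 and −0.23, and *Osbpl6*, an oxysterol-binding protein, had −0.32 and 1.23. The difference of *Osbpl6* was called without shSCR replicate 2 (−1.73, adjusted p = 0.0457), and that of *Dusp14* without OE_NI replicate 1 (−2.27, adjusted p = 0.0360).

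**Figure D2:**
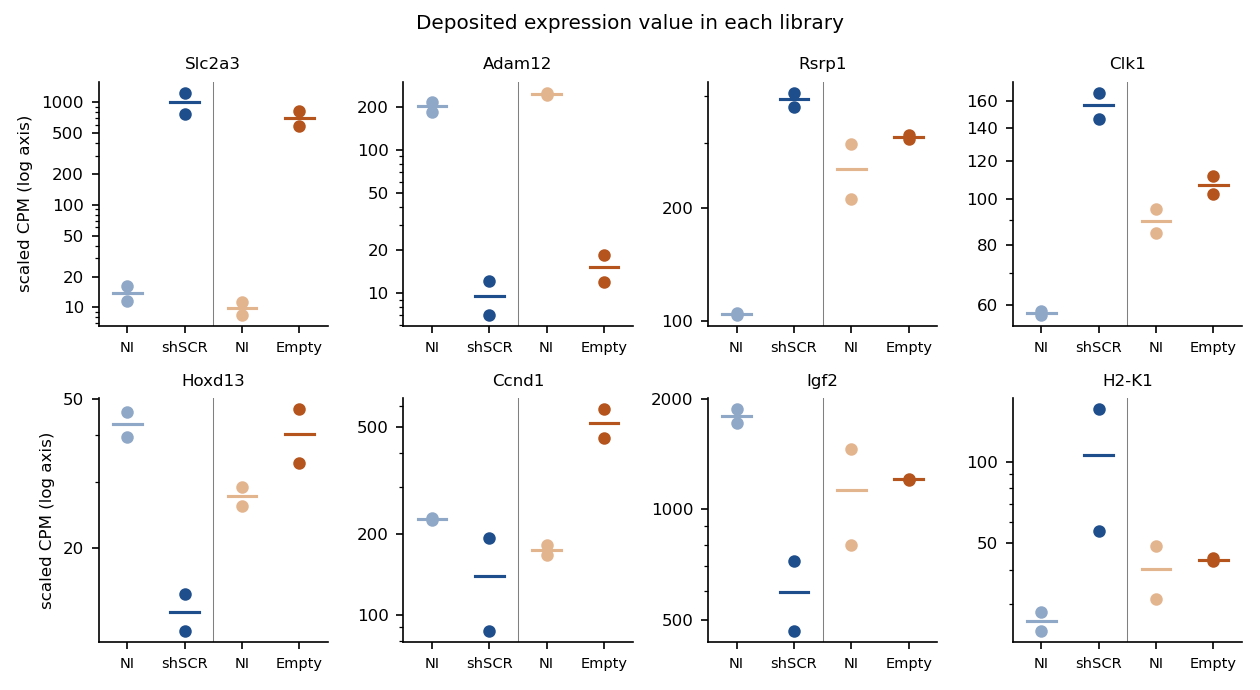
Scaled CPM (y axis, log scale) of 8 genes in each of the 8 libraries, with one point per library, a bar at the mean of each group, and the knockdown dataset to the left of the overexpression dataset. *Slc2a3* rises and *Adam12* falls in both controls, whereas the shSCR libraries of *Hoxd13* and *Ccnd1* lie below their day 0 libraries and the Empty libraries above theirs, although no difference was called.

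Changes past the threshold in opposite directions were found in 6 of the 9041 genes, and none of their differences was called. *Kcnj15* and *Pde8a*, a cyclic AMP phosphodiesterase, rose in shSCR cells and fell in Empty cells, whereas *Dusp14*, *Myc*, *Bmp4*, and *Psmb10* fell in shSCR cells and rose in Empty cells. *Myc*, a transcription factor that is also in the OKSM cassette, was at 200 and 160 in KD_NI, 94.1 and 94.9 in shSCR, 143 and 91.7 in OE_NI and 200 and 194 in Empty. Its 2 shSCR libraries lay below day 0 and its 2 Empty libraries above, with changes of −0.91 in shSCR cells (adjusted p = 0.0152) and 0.78 in Empty cells (adjusted p = 0.0313) and a difference of −1.69 ± 0.31 (SE, unadjusted p = 0.000979), and reads of the cassette cannot be told apart from those of the gene itself. *Bmp4*, a ligand of the BMP pathway, was at 59.9 and 62.8 in KD_NI, 27 and 37.5 in shSCR, 20.1 and 32.3 in OE_NI and 43.6 and 62.2 in Empty, with changes of −0.93 and 1.00. *Pde8a* was at 15.9 and 17.4 in KD_NI, 34.5 and 33.6 in shSCR, 27 and 49.7 in OE_NI and 20.8 and 20.2 in Empty, with changes of 0.99 and −0.81. *Psmb10*, an immunoproteasome subunit, had the smallest changes of the 6, −0.46 and 0.49. In Empty cells the adjusted p of these 6 genes lay between 0.0214 and 0.0469, and the differences of *Myc* and *Pde8a* were called without OE_NI replicate 1 (−2.01 and 2.23, adjusted p = 0.0433 and 0.0360).

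In a larger group, one control passed the threshold while the other stayed within 0.25 log2 units of 0. This held for 463 genes that changed in shSCR cells and 235 that changed in Empty cells. *Igf2*, an imprinted growth factor, was at 1714 and 1872 in KD_NI, 466 and 725 in shSCR, 800 and 1457 in OE_NI and 1212 and 1205 in Empty. It fell in shSCR cells (−1.62, adjusted p = 0.0076), and its change in Empty cells was 0.16 (adjusted p = 0.711), a difference of −1.78 ± 0.45 (SE, unadjusted p = 0.00573). *Neat1*, the RNA scaffold of paraspeckles, was at 62.9 and 126 in KD_NI, 457 and 229 in shSCR, 305 and 401 in OE_NI and 437 and 226 in Empty, with changes of 1.85 and −0.15 and Empty libraries that lay on both sides of their day 0 mean. *Rgs3*, a regulator of G protein signaling, and *Mr1*, which presents microbial metabolites to T cells, had changes of 2.35 and 2.03 in shSCR cells and −0.17 and 0.20 in Empty cells. *Pcolce2*, an enhancer of procollagen processing, fell in shSCR cells (−1.56) with a change of −0.01 in Empty cells, and its difference was called without OE_NI replicate 1 (−2.09, adjusted p = 0.0447). In the other direction, *Pxylp1*, a phosphatase of proteoglycan synthesis, and *Sorcs2*, a sorting receptor, fell in Empty cells (−1.68 and −1.59) with changes of −0.09 and 0.03 in shSCR cells. *Shb*, a signaling adaptor, and *mt-Rnr2*, the mitochondrial large ribosomal RNA, rose in Empty cells (1.24 and 1.37) with changes of 0.02 and 0.21 in shSCR cells.

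Lists of genes with shared roles were then followed in both controls, against a background of 21.2% of all genes rising and 22.5% falling in shSCR cells, 17.4% rising and 19.7% falling in Empty cells, and median changes of −0.03 and 0.01. The contractile genes and TGF-β targets fell together in both controls, 19 of the 26 measured in shSCR cells and 22 of 26 in Empty cells, with 1 and 0 rising and median changes of −2.05 and −2.08. *Thbs1*, a matrix glycoprotein on this list, fell in Empty cells (−1.64), and its change in shSCR cells was −0.51, with levels of 13915 and 11060 in KD_NI, 12800 and 5959 in shSCR, 15892 and 11910 in OE_NI and 3887 and 5032 in Empty. Of 33 fibroblast and mesenchymal genes, 16 fell and 2 rose in shSCR cells, and 23 fell and 0 rose in Empty cells, with medians of −1.12 and −1.74. The median difference of this list was 0.72, and −0.07 when both libraries that stood apart were left out. *Pdgfra*, a receptor of platelet-derived growth factor, was at 72.5 and 143 in KD_NI, 497 and 129 in shSCR, 112 and 213 in OE_NI and 90.5 and 105 in Empty, and *Tnc*, the matrix protein tenascin C, was at 1894 and 1614 in KD_NI, 1714 and 203 in shSCR, 2204 and 1870 in OE_NI and 167 and 193 in Empty. In both genes shSCR replicate 1 was several times above shSCR replicate 2, and the difference of *Tnc* was called only without replicate 2 (3.46, adjusted p = 0.0231).

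Most glycolysis and hypoxia-response genes rose in both controls. Of the 35 measured, 23 rose and 0 fell in shSCR cells and 21 rose and 2 fell in Empty cells, with medians of 1.44 and 0.94. The difference was positive for 27 of 35, and 7 had an unadjusted p under 0.05 with a positive sign, which 4.11% of all genes did. The median difference was 0.53, and 0.31 without the libraries that stood apart. *Vegfa*, a hypoxia-induced angiogenic factor, was at 103 and 81.6 in KD_NI, 388 and 161 in shSCR, 114 and 169 in OE_NI and 146 and 99.1 in Empty, with changes of 1.44 and −0.21 and shSCR replicate 1 well above replicate 2.

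Cell cycle genes had opposite median signs in the controls, with shSCR and OE_NI libraries spread around their means. Of 38 DNA replication genes, 0 rose and 5 fell in shSCR cells and 9 rose and 2 fell in Empty cells, with median changes of −0.43 and 0.41, and all 38 differences were negative. By library, the median change was −0.79 in shSCR replicate 1 and −0.01 in shSCR replicate 2, against 0.49 and 0.34 in Empty cells, while the OE_NI replicates lay at 0.33 and −0.33 around their own mean. The median difference was −0.78 with all libraries and −0.03 without the 2 that stood apart. *Ccne1*, cyclin E1, was at 96.6 and 90.7 in KD_NI, 43.1 and 80.2 in shSCR, 85.5 and 50.7 in OE_NI and 133 and 142 in Empty, *Mcm5*, a subunit of the replicative helicase, at 155 and 186 in KD_NI, 98.1 and 191 in shSCR, 144 and 93.2 in OE_NI and 225 and 202 in Empty, and *Rrm2*, a ribonucleotide reductase subunit, at 501 and 619 in KD_NI, 98.3 and 223 in shSCR, 553 and 223 in OE_NI and 244 and 216 in Empty. Of 36 mitosis genes, 0 rose and 12 fell in shSCR cells and 1 rose and 1 fell in Empty cells, with medians of −0.54 and 0.11. Here again shSCR replicate 1 had a median change of −0.98 and replicate 2 of −0.04, and the median difference went from −0.58 to 0.11 when the libraries that stood apart were left out. *Ube2c*, a ubiquitin-conjugating enzyme of mitotic exit, fell in shSCR cells (−1.05) with a change of 0.03 in Empty cells.

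In the list of p53 pathway genes and cell-cycle brakes, 33 were measured, of which 13 rose and 4 fell in shSCR cells, 13 rose and 1 fell in Empty cells, and the median difference was 0.02. The 3 members described next had the largest differences in size, and none was called with all libraries. *Ccnd1*, cyclin D1 (chr7:144929931-144939925), was at 227 and 230 in KD_NI, 86.9 and 193 in shSCR, 181 and 167 in OE_NI and 455 and 584 in Empty. Both shSCR libraries lay below KD_NI and both Empty libraries above OE_NI, with changes of −0.81 in shSCR cells (adjusted p = 0.0924) and 1.56 in Empty cells (adjusted p = 0.0129) and a difference of −2.37 ± 0.48 (SE, unadjusted p = 0.00173). Without shSCR replicate 2 the difference was called (−2.94, adjusted p = 0.0231). *Ccnd2*, cyclin D2, was at 602 and 646 in KD_NI, 363 and 527 in shSCR, 580 and 689 in OE_NI and 1009 and 1234 in Empty, with changes of −0.51 and 0.82. *Cdkn1b*, which encodes the CDK inhibitor p27, was at 46.1 and 52.8 in KD_NI, 129 and 98.6 in shSCR, 55.1 and 81.2 in OE_NI and 64.8 and 62.1 in Empty, and it rose in shSCR cells (1.18) with a change of −0.08 in Empty cells.

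In immune and inflammatory genes the shSCR libraries lay apart from each other. Of 22 interferon-response genes, 7 rose and 1 fell in shSCR cells and 3 rose and 2 fell in Empty cells, with medians of 0.85 and 0.05. The difference was positive for 19 of them, with a median of 0.62, and of 0.48 without the libraries that stood apart. The median change was 1.35 in shSCR replicate 1 and 0.38 in replicate 2, against −0.10 and 0.10 in the Empty libraries, while the day 0 libraries themselves stood at −0.32 and 0.32 (KD_NI) and at 0.24 and −0.24 (OE_NI) around their means. *Stat2*, which relays signals of type I interferon, was at 18 and 28.3 in KD_NI, 84.3 and 54.4 in shSCR, 49.6 and 48.5 in OE_NI and 40.5 and 42.5 in Empty, with changes of 1.54 and −0.24 and a difference of 1.78 ± 0.37 (SE, unadjusted p = 0.00205). Of 10 antigen-presentation genes, 4 rose and 2 fell in shSCR cells and 3 rose and 1 fell in Empty cells, and the median difference was 0.49, or 0.11 without the libraries that stood apart. *H2-K1*, a classical MHC class I gene, was at 27.9 and 23.7 in KD_NI, 156 and 55.4 in shSCR, 31.2 and 49 in OE_NI and 43.2 and 44.1 in Empty, with a change of 1.82 in shSCR cells, where replicate 1 was far above replicate 2. Of 22 inflammatory and secreted signaling genes, 4 rose and 2 fell in shSCR cells and 2 rose and 3 fell in Empty cells, and the median change by library was 1.43 and −0.53 in shSCR cells and −0.73 and −0.48 in Empty cells. *Cxcl1*, a neutrophil chemokine, was at 24.3 and 51.6 in KD_NI, 386 and 22.3 in shSCR, 23.8 and 31.2 in OE_NI and 7.28 and 11.1 in Empty, and *Ptgs2*, the inducible cyclooxygenase, at 1743 and 1127 in KD_NI, 2358 and 142 in shSCR, 1409 and 487 in OE_NI and 68.4 and 83.5 in Empty. The median difference of this list was 1.00 with all libraries and −0.09 without the 2 that stood apart.

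For cholesterol synthesis the spread lay at day 0 instead. Of 32 measured genes, 2 rose and 2 fell in shSCR cells and 0 rose and 6 fell in Empty cells, with medians of 0.12 and −0.55, and the difference was positive for 30. The median was 0.12 and 0.18 in the shSCR libraries and −0.55 and −0.53 in the Empty libraries, but the OE_NI libraries themselves stood at −0.61 and 0.61 around their mean. The median difference of 0.86 became 0.23 without the libraries that stood apart. *Cyp51*, a sterol demethylase, was at 115 and 145 in KD_NI, 125 and 118 in shSCR, 155 and 429 in OE_NI and 98.1 and 90 in Empty, and its difference was called without OE_NI replicate 1 (2.09, adjusted p = 0.0433). *Sc5d*, a sterol desaturase, was at 63.7 and 62.3 in KD_NI, 109 and 59.2 in shSCR, 80.7 and 135 in OE_NI and 52.8 and 50.2 in Empty, with changes of 0.34 and −1.01. Among 30 amino-acid stress genes and ATF4 targets, 5 rose and 6 fell in shSCR cells, 3 rose and 5 fell in Empty cells, and the median difference was 0.08, or −0.30 without the libraries that stood apart. *Ddit4*, an inhibitor of mTORC1, was at 15 and 17.1 in KD_NI, 143 and 135 in shSCR, 33.5 and 92.5 in OE_NI and 106 and 137 in Empty, and its difference was called without OE_NI replicate 1 (2.66, adjusted p = 0.0360).

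Lists tied to cell identity were measured only in part. Of 50 pluripotency-associated genes 12 were in both tables and 8 in the knockdown table only, and of 40 epithelial genes 4 were in both, 5 in the knockdown table only, and 1 in the overexpression table only. Of the 12 pluripotency-associated genes, 6 rose and 2 fell in shSCR cells and 7 rose and 1 fell in Empty cells, with medians of 0.60 and 1.01, which were 0.33 and 0.88 in the shSCR libraries and 1.05 and 0.98 in the Empty libraries. *Dnmt3a*, a de novo DNA methyltransferase, was at 40.1 and 42.6 in KD_NI, 79.8 and 116 in shSCR, 24.2 and 50 in OE_NI and 153 and 154 in Empty, and rose by 1.20 and 2.11. The median difference of the list was −0.25, and 0.05 without the libraries that stood apart. Of 4 epithelial genes in both tables, 3 rose in shSCR cells and 2 in Empty cells, and *Jup*, a plakoglobin of desmosomes and adherens junctions, was among them, with changes of 0.75 and 1.25. Of 11 Hox and limb positional genes, 2 fell in shSCR cells and 4 in Empty cells and 0 rose in either. *Meis1*, a partner of HOX proteins, was at 19.4 and 23.2 in KD_NI, 16.4 and 14.4 in shSCR, 26.3 and 29.8 in OE_NI and 9.78 and 11.1 in Empty, with changes of −0.44 and −1.34, opposite in order to *Hoxd13* above. Of 18 imprinted genes, 3 rose and 4 fell in shSCR cells and 3 rose and 3 fell in Empty cells, and *Peg10*, a retrotransposon-derived gene, rose in both, by 2.63 and 1.21.

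Genes of splicing regulators had small median changes. Of the 64 measured, 6 rose and 15 fell in shSCR cells and 3 rose and 8 fell in Empty cells, with medians of −0.29 and 0.02. The median difference was −0.26, negative for 47 of the 64, and −0.02 without the libraries that stood apart. *Clk1*, described above, lay opposite to this median. *Hnrnpab*, an hnRNP, was at 238 and 236 in KD_NI, 95.4 and 150 in shSCR, 232 and 173 in OE_NI and 189 and 195 in Empty, and fell in shSCR cells (−0.98) with a change of −0.06 in Empty cells.

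**Figure D3:**
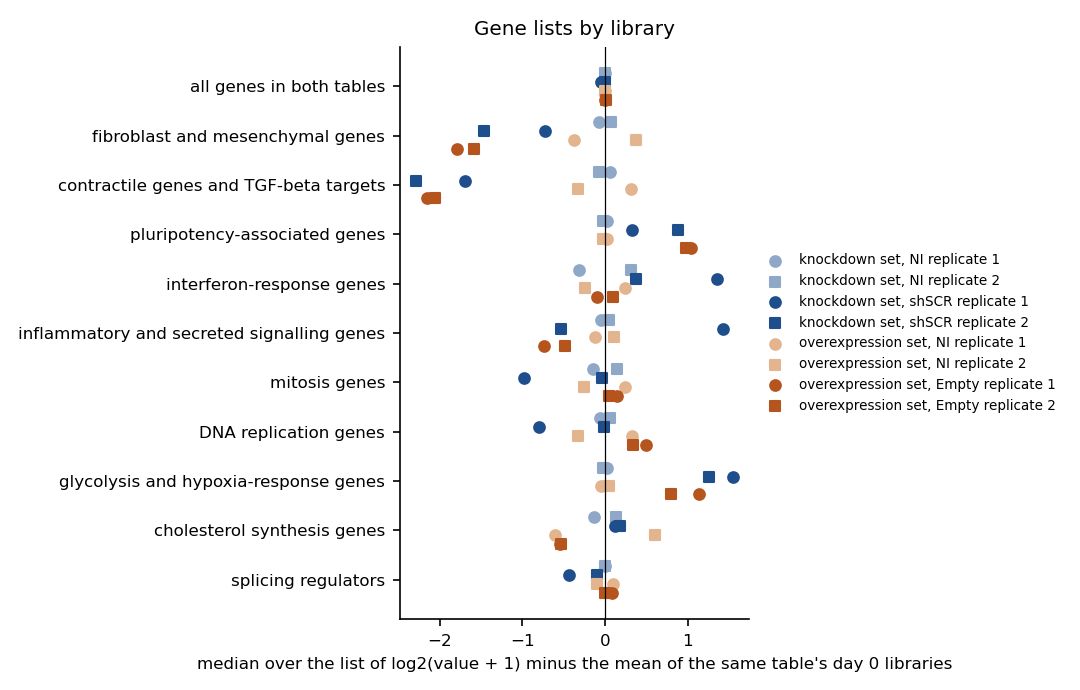
Median over each gene list (rows) of the log2(scaled CPM + 1) value minus the mean of the day 0 libraries of the same dataset (x axis), with one point for each of the 8 libraries, day 0 libraries included. Contractile genes and TGF-β targets are far below 0 in all 4 day 12 libraries, and shSCR replicate 1 lies away from the other 3 for inflammatory, interferon-response, mitosis, and DNA replication genes.

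Markers of other cell types were followed over the genes in both tables and over those in 1 table. Of the genes in both tables, 0 of 25 macrophage and leukocyte markers, 0 of 22 muscle markers, and 0 of 12 blood markers were measured. Endothelial markers had 2 measured genes (1 fell in each control), neural and glial markers 4 (1 rose and 3 fell, and 1 rose and 2 fell), cartilage and bone markers 5 (1 rose and 3 fell in each), adipocyte markers 2 (none passed the threshold in either control), and markers of stratified epithelium and trophoblast 3 (2 rose and 1 rose). The filter of the authors was applied to each table on its own, and it left 394 genes only in the knockdown table and 431 only in the overexpression table. Of the former 51 were on the lists, 35 of them above and 4 below both day 0 libraries in both shSCR libraries, and of the latter 9, with 1 above and 7 below in both Empty libraries. A gene low at day 0 could be listed through its day 12 libraries, which were 10 of the 12 in the knockdown table, so that this filter favored rises, and the counts and values are a description. Of 11 interferon-response genes only in the knockdown table, *Parp14* alone was above day 0 in both shSCR libraries, and *Ifit1*, an interferon-induced antiviral gene, was at 12.5 and 23.6 in KD_NI and 22.02 and 5.36 in shSCR. *Krt8* and *Krt18*, the keratins of simple epithelia, were among those only in the knockdown table, at 6.48 and 5.04 in KD_NI and 268 and 146 in shSCR for *Krt8*, and at 14.0 and 10.9 and then 271 and 152 for *Krt18*. *Cd68*, a lysosomal protein of macrophages, was at 7.48 and 4.35 in KD_NI and 30.4 and 29.9 in shSCR. *Lyz2*, lysozyme of macrophages and neutrophils, was at 1.27 and 2.99 and then 249 and 132, and *Csf1r*, the receptor of macrophage growth factor, at 1.86 and 2.23 and then 21.3 and 9.19. These macrophage genes were above day 0 in both shSCR libraries, and their part in the results on the immune lists was not tested. In bulk RNA, fewer cells of a type and less RNA per cell cannot be told apart.

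Alternative splicing was compared by percent spliced in (PSI), the share of a gene's transcripts, in percent, in which an exon is included or an intron is kept, with ∆PSI for its change from day 0 to day 12. Differential splicing needed a |∆PSI| of at least 10 between means and a gap of at least 5 between the libraries of day 0 and day 12. In shSCR cells 4425 of the 375849 events passed (1.18%), 2726 with higher and 1699 with lower PSI at day 12, and in Empty cells 2349 passed (0.625%), 1202 higher and 1147 lower. Of these, 1214 passed in the same direction in both, which is 27.4% of the shSCR events and 51.7% of the Empty events, and 34 passed in opposite directions. The ∆PSI of the 5526 events that passed in either control correlated at r = 0.669, a description over events that share libraries.

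More events of each type met these criteria with shSCR than with Empty, and in shSCR cells those that gained PSI outnumbered those that lost it among cassette exons and retained introns. Of 109198 cassette exons, 937 were more and 568 less included at day 12 with shSCR (1.38% in all), against 466 and 440 with Empty (0.830%). Of 107612 introns, 1063 were more and 396 less retained with shSCR (1.36%), against 361 and 329 with Empty (0.641%). Of the 1063 introns more retained in shSCR cells, 897 (84.4%) also had a ∆PSI above 0 in Empty cells, with a median of 5.24 against 14.2 in shSCR cells. Of the 361 introns more retained in Empty cells, 339 (93.9%) had a ∆PSI above 0 in shSCR cells, with medians of 14.1 and 12.8. Over all covered introns, 57.5% had a ∆PSI above 0 in shSCR cells and 47.8% in Empty cells. Without the 2 libraries that stood apart, the number of differentially spliced events was 5531 with shSCR and 4269 with Empty. Without the first library of every group it was 6412 and 3894, and 1774 of the Empty events had higher PSI at day 12. Without the second it was 7005 and 6263, and 3552 of the Empty events had higher PSI at day 12.

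**Figure D4:**
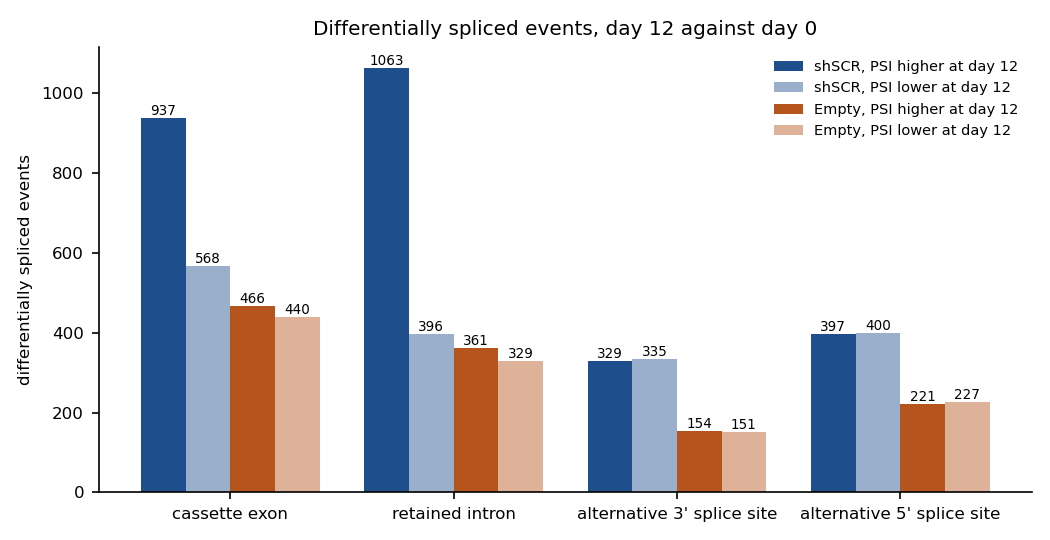
Number of differentially spliced events (y axis, from 0) with higher and with lower PSI at day 12 for each of the 4 types of event, in shSCR cells and in Empty cells. Retained introns with higher PSI are the tallest bar in shSCR cells, at 1063 against 361 in Empty cells.

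Of the exons the study assayed by RT-PCR, 3 that changed in both controls are shown with their sequences, because their lengths and their frame bear on what inclusion adds to the protein. Each lies between 20 bases of its neighboring exons in lower case, 5′ to 3′ on the strand of the gene, with the alternative exon in capitals, and all are coding exons of GENCODE vM21 transcripts on mm10.
*Afdn* (chr17:13848355-13848375, plus strand): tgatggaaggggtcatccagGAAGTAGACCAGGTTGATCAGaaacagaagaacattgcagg
*Pcnt* (chr10:76403624-76403644, minus strand): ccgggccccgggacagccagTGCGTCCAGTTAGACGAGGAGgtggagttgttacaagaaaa
*Plod2* (chr9:92601985-92602047, plus strand): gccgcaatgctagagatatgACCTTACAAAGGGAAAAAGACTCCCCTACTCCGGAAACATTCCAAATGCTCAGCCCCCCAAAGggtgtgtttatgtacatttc
The exons of *Afdn*, afadin of cell junctions, and *Pcnt*, pericentrin of the centrosome, are 21 bases long and that of *Plod2*, a lysyl hydroxylase of collagen, is 63 bases long, all multiples of 3. PSI of the *Afdn* exon was 79.7 and 84.9 in KD_NI, 29.9 and 14.8 in shSCR, 85.1 and 80.3 in OE_NI and 23.4 and 29.6 in Empty. Its inclusion fell in both controls, by 59.9 and 56.2, and the difference of −3.75 was −19.4 without the first and 11.9 without the second library of every group. The *Pcnt* exon was at 100 and 100 in KD_NI, 31.9 and 20.4 in shSCR, 100 and 100 in OE_NI and 41.4 and 37.7 in Empty, with at least 45 reads in each library. It fell further in shSCR cells, by 13.4, and is among the differing events described next. The *Plod2* exon was at 93 and 93.7 in KD_NI, 60.2 and 30 in shSCR, 95.1 and 97.5 in OE_NI and 42.1 and 49.9 in Empty, with shSCR replicate 1 between day 0 and the other day 12 libraries. *Nasp*, a histone chaperone, gained a long exon of 975 bases (chr4:116610403-116611377) to a like degree in both controls, at 18.2 and 19 in KD_NI, 74.7 and 80.7 in shSCR, 16.8 and 17.3 in OE_NI and 79.7 and 77.3 in Empty. Over all shared cassette exons, 57.4% had a length that is a multiple of 3 and 4.50% were of 27 bases or less, against 39.4% and 1.89% of all covered cassette exons.

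A differing event was one with differential splicing in at least 1 control, a difference of the ∆PSI of at least 10, and no overlap between the library-to-library changes of the controls. There were 2005 such events in 1320 genes (0.533% of the covered events), 1263 with the higher ∆PSI in shSCR cells and 742 with the higher ∆PSI in Empty cells. In 1357 of them the criteria for differential splicing were met only in shSCR cells, in 430 only in Empty cells, and in 218 in both. The ∆PSI was under 2 in size in Empty cells for 487 and in shSCR cells for 139. The libraries of day 0 differed by at least 10 between the datasets in 446 of the events, and those of day 12 in 817, with 61 counted in both and 803 in neither. Their least covered library had a median of 68 reads, against 166 over all events. Without the libraries that stood apart 3815 events met these criteria. The excess toward shSCR cells moved with the replicates. Without the first library of every group 3185 of 5160 events had the higher ∆PSI in shSCR cells, and without the second 3058 of 5855.

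In a test on the reads for inclusion and exclusion with *limma*, 0 of 283182 events differed between the controls at an adjusted p under 0.05 (lowest 0.214), and 23384 had an unadjusted p under 0.05 (8.26%). The latter held 1558 of the 2005 events, which is no separate support, because those events were chosen for the same difference in the same libraries. The same test called 2917 changes from day 0 to day 12 in shSCR cells and 94 in Empty cells, and these counts rest on single libraries. Without either KD_NI library it called 0 in both controls, without shSCR replicate 1 it called 13 and 8, without shSCR replicate 2 it called 32 and 8, without either OE_NI library it called 870 and 0, without either Empty library it called 1780 and 0, and without both libraries that stood apart it called 0 in both. With PSI in percent as the measure it called 41 differences, 3 of them among the 2005 events, and with all 18 libraries in the fit it called 8, of which 4 were among them. The main fit left the further libraries out, because the design did not count the other knockdown libraries as independent of the shSCR libraries. The differing events below are therefore described by their values in each library.

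Among cassette exons, 396 had the higher ∆PSI in shSCR cells and 211 in Empty cells (0.556% in all). For 3 of them the sequence is given, because the ∆PSI had opposite signs in the controls, although only that of *Clk1* met the criteria for differential splicing in both, and those of *Cacna1c* and *Stxbp5* met them only in shSCR cells.
*Cacna1c* (chr6:118630399-118630431, minus strand): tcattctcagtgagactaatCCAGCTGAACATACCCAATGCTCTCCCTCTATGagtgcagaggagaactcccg
*Stxbp5* (chr10:9784341-9784400, minus strand): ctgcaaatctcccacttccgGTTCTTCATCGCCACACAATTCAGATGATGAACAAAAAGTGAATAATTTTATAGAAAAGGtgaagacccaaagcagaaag
*Clk1* (chr1:58417013-58417179, minus strand): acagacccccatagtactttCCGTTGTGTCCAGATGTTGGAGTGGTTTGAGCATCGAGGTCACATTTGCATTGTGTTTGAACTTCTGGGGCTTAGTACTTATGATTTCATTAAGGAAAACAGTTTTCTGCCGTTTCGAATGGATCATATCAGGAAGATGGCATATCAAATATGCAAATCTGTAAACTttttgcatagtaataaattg
In *Cacna1c*, the pore subunit of an L-type calcium channel, the exon of 33 bases was at 50.8 and 54.9 in KD_NI, 23.4 and 31 in shSCR, 49.1 and 60.9 in OE_NI and 64.9 and 68.6 in Empty, ∆PSI −25.7 and 11.7 (unadjusted p of the difference in reads = 0.00107, with at least 30 reads in each library). Both shSCR libraries fell below their day 0 libraries and both Empty libraries rose above theirs. The exon of *Stxbp5*, a regulator of SNARE complexes, has 60 bases and was at 72.6 and 82.2 in KD_NI, 51.9 and 45 in shSCR, 67.6 and 76 in OE_NI and 90.5 and 77.6 in Empty, ∆PSI −28.9 and 12.3 (unadjusted p by *limma* on reads = 0.0034). The *Clk1* exon has 167 bases, not a multiple of 3. Its PSI was 73.8 and 87.1 in KD_NI, 95 and 94.7 in shSCR, 93.9 and 91.2 in OE_NI and 66.3 and 85 in Empty, ∆PSI 14.4 and −16.9 (unadjusted p by *limma* on reads = 0.00136), and the difference of 31.3 was 13.8 without the first and 48.8 without the second library of every group.

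The introns on either side of that *Clk1* exon lost PSI in shSCR cells. The downstream intron of 2328 bases (chr1:58414685-58417012) was at 48.8 and 36.8 in KD_NI, 18.4 and 14.5 in shSCR, 22.8 and 19.1 in OE_NI and 35.5 and 19 in Empty, and the upstream intron of 87 bases (chr1:58417180-58417266) was at 31.5 and 27.4 in KD_NI, 11.2 and 8.84 in shSCR, 8.44 and 11.7 in OE_NI and 22.8 and 11.5 in Empty. In both, shSCR cells retained less at day 12 than at day 0, by 26.4 and 19.4, while the ∆PSI in Empty cells was 6.29 and 7.09 and did not meet the criteria, with Empty replicate 2 within or below the OE_NI libraries. *Clk4*, a related kinase, had a cassette exon of 67 bases at 31.8 and 30.2 in KD_NI, 29.2 and 18.9 in shSCR, 12.6 and 18.4 in OE_NI and 45.9 and 29.6 in Empty, ∆PSI −6.92 and 22.2. These *Clk1* events and the expression of *Clk1* are read from the same libraries and are not independent.

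Other exons had a larger ∆PSI in shSCR cells. In *Cep295*, a centriole protein, an exon of 144 bases (chr9:15330505-15330648) was at 59.1 and 61.9 in KD_NI, 95 and 95.2 in shSCR, 78.4 and 78.3 in OE_NI and 85.8 and 81.9 in Empty, ∆PSI 34.6 and 5.51 (unadjusted p by *limma* on reads = 5.45e-06). Its day 0 libraries differed between the datasets by more than its day 12 libraries. In *Fam193b* an exon of 240 bases was at 75.6 and 74.9 in KD_NI, 89.7 and 90.1 in shSCR, 80.9 and 82.5 in OE_NI and 79.6 and 79.6 in Empty (unadjusted p by *limma* on reads = 4.33e-06, called with all 18 libraries at an adjusted p of 0.0311). In *Wsb1*, which encodes a substrate receptor of a ubiquitin ligase, an exon of 164 bases was at 16.7 and 15.6 in KD_NI, 75.9 and 74.5 in shSCR, 22.7 and 50.6 in OE_NI and 49.8 and 44.8 in Empty, and the intron around it (chr11:79242157-79244462) was at 21.2 and 23.6 in KD_NI, 68.4 and 68.5 in shSCR, 34.4 and 51.3 in OE_NI and 39.7 and 34 in Empty. The 2 OE_NI libraries of *Wsb1* were far apart, and without the libraries that stood apart the differences of 48.4 and 52 were 33.8 and 43.7. Differing cassette exons had lengths that are multiples of 3 in 47.2% with the higher ∆PSI in shSCR cells and 48.3% with the higher ∆PSI in Empty cells.

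**Figure D5:**
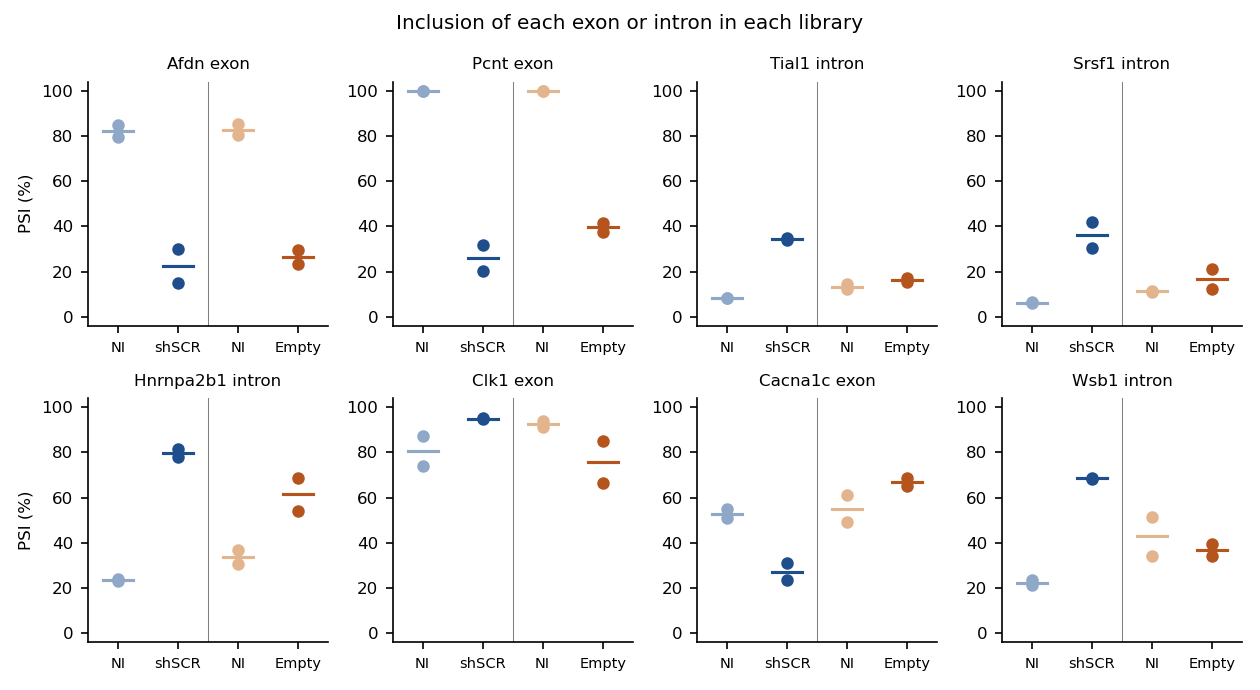
PSI in percent (y axis, 0 to 100) of 8 exons and introns in each of the 8 libraries, with one point per library, a bar at the mean of each group, and the knockdown dataset to the left of the overexpression dataset. The *Afdn* and *Pcnt* exons drop in both controls, the *Tial1*, *Srsf1*, and *Hnrnpa2b1* introns gain more PSI in shSCR cells, and the means of the *Clk1* and *Cacna1c* exons move in opposite directions.

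Among retained introns, 502 had the higher ∆PSI in shSCR cells and 168 in Empty cells (0.623% of covered introns). Among introns of splicing regulators, 23 of the 637 covered met the criteria (3.61%), a description with no test of the list. Of these, 20 introns of 14 genes had the higher ∆PSI in shSCR cells, with differences from 10.5 to 29.6. Without the libraries that stood apart, 15 of the 20 kept a difference of at least 10. Leaving out libraries could not reverse their sign, because the criteria required that the library changes of the controls did not overlap. In 18 of the 20 both shSCR libraries were above both Empty libraries at day 12, and in 16 both KD_NI libraries were below both OE_NI libraries at day 0. The criteria favor such separation, and its share among all differing introns was not counted. Libraries of day 12 differed between the datasets by at least 10 in 10 of the 23 introns, and those of day 0 in 5. Among all 670 differing introns these counts were 247 and 138. Over all 637 introns, 31 were differentially spliced in shSCR cells, 27 of them with more retention, and 7 in Empty cells, all with more retention. Counting only direction, 39.4% of these introns were above day 0 in both shSCR libraries and 21.7% in both Empty libraries, against 28.9% and 17.2% of all introns.

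The introns of the related genes *Tial1* and *Tia1*, whose proteins bind U-rich RNA and promote splice site use, were among them. The *Tial1* intron of 334 bases (chr7:128443947-128444280, within the coding region) had the smallest p of all events in the test on reads (2.23e-06, adjusted p = 0.214). It was at 8.15 and 8.47 in KD_NI, 34.9 and 34.1 in shSCR, 12.2 and 14.4 in OE_NI and 17 and 15.3 in Empty, so that retention in shSCR cells exceeded that of every other library, and the ∆PSI was 26.2 and 2.81 with at least 1201 reads per library. A *Tia1* intron of 379 bases (chr6:86425071-86425449) was at 9.4 and 11 in KD_NI, 37.3 and 36.9 in shSCR, 14.6 and 14.9 in OE_NI and 21.1 and 20.6 in Empty, ∆PSI 26.9 and 6.08, and was called with PSI in percent as the measure (adjusted p = 0.0434). Its cassette exon of 66 bases (chr6:86423606-86423671) was at 22.9 and 20.9 in KD_NI, 70.4 and 69.7 in shSCR, 16.2 and 23.1 in OE_NI and 54 and 40.1 in Empty, a gain in both controls.

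SR protein genes followed. An intron of 196 bases in *Srsf1* (chr11:88049216-88049411) was at 6.47 and 5.97 in KD_NI, 41.8 and 30.3 in shSCR, 11.5 and 11 in OE_NI and 21.4 and 12.4 in Empty, ∆PSI 29.8 and 5.63 (unadjusted p by *limma* on reads = 0.00105). In *Srsf6* an intron (chr2:162932143-162933425) was at 12.5 and 11.2 in KD_NI, 32 and 29.2 in shSCR, 16.7 and 19.9 in OE_NI and 19.1 and 17 in Empty, ∆PSI 18.8 and −0.23 (unadjusted p by *limma* on reads = 3.90e-05), and the exon inside it, which carries coding and untranslated bases, was at 4.1 and 4.13 in KD_NI, 17.2 and 14.3 in shSCR, 9.45 and 10 in OE_NI and 11.8 and 10.8 in Empty (called with all 18 libraries, adjusted p = 0.0311). An intron of *Srsf5* (chr12:80947866-80949094) was at 10.2 and 8.9 in KD_NI, 24.6 and 19.9 in shSCR, 16.8 and 16.7 in OE_NI and 10.1 and 11.1 in Empty, which is a gain in shSCR cells and a lower PSI in both Empty libraries than in OE_NI, and an intron of *Srsf2* gained less, with ∆PSI 10.9 and 0.44. For the hnRNPs, the intron of *Hnrnpa2b1* (chr6:51461434-51463410) gained PSI in both controls, at 24.1 and 23.3 in KD_NI, 81.3 and 78.1 in shSCR, 30.7 and 36.9 in OE_NI and 68.9 and 54.1 in Empty, ∆PSI 56 and 27.7.

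In most of these introns Empty replicate 1 had a higher PSI than Empty replicate 2, which held for 18 of the 20. Introns of *Sf3b1*, a component of U2 snRNP, *Sfpq*, a paraspeckle protein, *Srrm2*, a scaffold of nuclear speckles, and *Hnrnpm* had differences of 12.4, 13.2, 13.6, and 10.6, which were 5.62, 7.39, 9.53, and 5.96 without the libraries that stood apart, under the minimum of 10, as was that of the *Srsf2* intron named above (10.495 and 6.375). The mean PSI over the 637 introns of splicing regulators was 4.89 and 4.29 in the shSCR libraries and 4.37 and 3.163 in the Empty libraries. Both shSCR libraries and Empty replicate 1 lay above all 4 day 0 libraries, and Empty replicate 2 lay below both OE_NI libraries, at 3.32 and 3.34. Over all introns it was 2.96 and 2.76 in the shSCR libraries and 2.89 and 2.23 in the Empty libraries, against 2.47 and 2.26 in KD_NI and 2.50 and 2.38 in OE_NI, and in either set the day 12 libraries of the controls overlapped.

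Introns of genes outside this list went both ways. An intron of *Zfp101*, a zinc finger gene (chr17:33382587-33386421), was at 90.4 and 84.3 in KD_NI, 51.2 and 46 in shSCR, 68.8 and 70 in OE_NI and 72.3 and 77.8 in Empty, ∆PSI −38.8 and 5.63 (unadjusted p by *limma* on reads = 4.56e-05). In *Mapk8*, which encodes the kinase JNK1, an intron was at 67.4 and 73.5 in KD_NI, 35.5 and 35.7 in shSCR, 66.5 and 82.9 in OE_NI and 76.9 and 74.8 in Empty, with a ∆PSI in Empty cells of 1.14. In *Pnisr*, which encodes a serine- and arginine-rich protein, an intron was at 15.3 and 15.2 in KD_NI, 27.5 and 36.5 in shSCR, 29.5 and 44.9 in OE_NI and 7.71 and 18.9 in Empty, ∆PSI 16.7 and −23.9. *Cdk5rap1*, an RNA-modifying enzyme of mitochondria, had an intron at 1.39 and 0 in KD_NI, 1.82 and 0 in shSCR, 6.49 and 0 in OE_NI and 50.7 and 40.1 in Empty, a gain in Empty cells with a ∆PSI of 0.215 in shSCR cells. Differing introns with the higher ∆PSI in shSCR cells had a median length of 1091 bases and those with the higher ∆PSI in Empty cells of 518, against 1277 for all covered introns.

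Among alternative splice sites, 344 of 93067 alternative 3′ sites (0.370%) and 384 of 65972 alternative 5′ sites (0.582%) differed. A well covered difference was in *Srsf5*, where use of one of its alternative 5′ splice sites was at 26.9 and 24.6 in KD_NI, 66.8 and 59.8 in shSCR, 27.7 and 26 in OE_NI and 46.7 and 41.5 in Empty, a gain in both controls of 37.6 and 17.2 with at least 1971 reads per library. *Amotl1*, an angiomotin-like junction protein, had the largest difference of the 34 events that passed in opposite directions, with a 5′ splice site at 44.6 and 44.9 in KD_NI, 0 and 22 in shSCR, 26.2 and 25.8 in OE_NI and 39.1 and 56.2 in Empty (unadjusted p by *limma* on reads = 0.00501). Sites of one choice mirror each other, so such events come in pairs and are not independent.

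The genes of differing events were also followed in expression. Of the genes with differing cassette exons of higher ∆PSI in shSCR cells, 25 of 272 had an unadjusted p under 0.05 for the difference in expression (9.19%), and 9 of 150 of those with the higher ∆PSI in Empty cells, against 7.85% of all genes with covered cassette exons. For genes of differing introns the shares were 9.65% and 13.5%, against 8.01%. *Clk1* was among the genes with both.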

How the data were processed

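RNA-seq of 8 libraries was used, 2 per group. The authors mapped stranded reads to mm10 with *STAR* 2.7.1a, obtained CPM with *edgeR* 3.16.5, and stated that at least 5 CPM was required in a set share of the samples. The deposited expression values are a signal, CPM relative to a scaled library size. Every value of a library is an integer number of equal steps, within 1e-06 of a step, which gave its depth if a step is 1 read. No test on counts was run. The authors quantified splicing with strand-specific *vast-tools* and deposited PSI in percent with coverage scores and reads, and an event was used at VLOW or better, at least 10 reads, in all 8 libraries. Depth was 99125788 to 109047542 reads on listed genes per library, and events near 10 reads have a wide counting error.

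For expression, *limma* 3.58.1 with a variance trend (R 4.3.3, two-sided) was applied to log2(value + 1), which understates changes of low genes, with the 4 groups in one fit, the difference as a contrast, and Benjamini-Hochberg adjustment over 9041 genes at 0.05. Each change stays within a dataset, since the tables were scaled separately. For splicing, log2 ratios of inclusion to exclusion reads (with 1 read added to both) went into a robust *limma* fit, where the weight was the inverse of a sum of counting variance and a floor of 0.0302. Tables were made in Python 3.11.15 with NumPy 2.4.6 and pandas 2.3.3. Both tests were checked on drawn data with known answers.

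Genes were named by rule: the 6 largest shared rises and falls, the 8 smallest p of each sign of the difference with library changes that did not overlap (used because no difference was called), up to 5 of each sign called in both controls with opposite signs, the largest called in one control with the other under 0.25 in size, and up to 3 per list. Some of the genes and events so chosen are not reported here. Events were named by the largest difference per type, the smallest p, the genes of the splicing lists, the largest shared exons and opposite events, and 3 exons the study assayed. The members and lists were chosen with earlier results of these data known. Coordinates and exon sequences are from GENCODE vM21 on mm10. The closing section gives the effect of other settings, one of them chosen after seeing the data.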

Additional observations from a re-analysis of the deposited data

Results flagged for a closer look

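Of the 34 events that passed in opposite directions, the 6 with the largest differences were alternative 5′ splice sites of 3 genes. In these 6, every shSCR library moved one way and every Empty library the other, although the test on reads called none of these differences after adjustment. The difference of the ∆PSI between shSCR and Empty cells was −55.4 and 55.4 for a pair of sites in *Amotl1*, −51.9 and 51.9 for a pair in *Mid2*, and −43.7 and 45.8 for 2 sites of *Snhg17*. The mean PSI at day 0 already differed between the datasets. KD_NI minus OE_NI was 18.8 and −18.7 in *Amotl1*, 4.78 and −4.78 in *Mid2*, and 24.7 and −26.0 in *Snhg17*. The sites of a pair mirror each other and count once.

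Genes listed only in the knockdown table entered no comparison with Empty cells, and 6 of them that are on the lists stood far above day 0 in shSCR cells. The ratio of the day 12 mean to the day 0 mean was 212 for *C3*, a complement component, 205 for *Upp1*, a uridine phosphorylase, 135 for *Mmp13* and 51.0 for *Mmp3*, both matrix metalloproteases, 89.4 for *Lyz2*, a lysozyme, and 68.0 for *Aldoc*, an aldolase. The 2 shSCR libraries were at 1506 and 48.1 scaled CPM for *C3*, 938 and 79.5 for *Mmp13*, and 1038 and 162 for *Mmp3*, with replicate 1 far above replicate 2. They were closer together for *Upp1* (279 and 373), *Lyz2* (249 and 132), and *Aldoc* (69.9 and 78.7). A gene low at day 0 was listed through its high day 12 libraries, so the authors' filter favored such ratios. They come from 2 libraries per group and were not tested.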

How the results depend on the processing

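The number of changed genes moved with single libraries. Leaving out each library in turn gave 1755 to 4557 genes in shSCR cells, 941 to 4088 in Empty cells, and 0 to 42 differences, where a lone library was assumed to vary like the other groups. Leaving out both libraries that stood apart, chosen after seeing the data, gave 5408 genes in Empty cells, 4269 differentially spliced events in Empty cells, and 3815 differing events. Differences in expression stayed at 0 with a constant of 0.5 or 5, a mean of at least 20, TMM scaling, all 18 libraries, or a fit per table.

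With a minimum ∆PSI of 15 or 20, the differentially spliced events numbered 2277 and 1154 in shSCR cells and 1169 and 578 in Empty cells, and the differing events 794 and 325. With 1 library per group they were 6412 to 7005, 3894 to 6263, and 5160 to 5855. Without the range and separation there were 3249 differing events, and of the 2005 events 0 were also called in the test on reads. That test called 41 differences with PSI in percent and 8 with all 18 libraries. The cause of these shifts was not tested. Events of few reads limit the precision of PSI.

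With the replicate number of each dataset as a replicate block, the genes called were 3642 in shSCR cells, 2982 in Empty cells, and 1 for the difference (*Kcnj15*, adjusted p = 0.0264), and 0 events differed in the test on reads. The labels do not say that a number marks a shared culture, and deviations of same-numbered libraries correlated at −0.006 and 0.173 across genes and 0.0205 and 0.0151 across 5526 events, so the samples were not treated as pairs. The planned tests on reads per gene with edgeR and DESeq2 were not run, so the count of 0 differences in expression rests on limma alone.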
